A study of Homo sapiens with 6 samples.

Results

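The lysosome genes described here are 36 genes for lysosomal enzymes, lysosomal membrane proteins and the vacuolar proton pump (V-ATPase), chosen by name for these roles and found among 61552 gene identifiers. All 36 symbols matched 1 identifier each. RNA was measured in a human cell line, MDA-MB-231, derived from a triple-negative breast tumor, with 3 vehicle control libraries (DMSO) and 3 libraries from cells given VNLG-152R at 10 µM, both collected after 24 h. VNLG-152R is a retinamide that the study describes as a degrader of the kinases MNK1 and MNK2, and no other agent or genetic change separated the groups. The comparison asks which of these genes differed in RNA level between treated and control cells. The sources do not say whether the replicates were separate cultures, so the p-values here reflect the spread among these libraries alone, and that spread may be technical.

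The lysosome is the acidic compartment in which cells break down proteins, glycans and lipids. Its hydrolases work at low pH, its limiting membrane is lined by heavily glycosylated proteins such as LAMP1 and LAMP2, and its acidity is set by the V-ATPase, in which the cytosolic V1 sector burns ATP and the membrane V0 sector carries protons. Many of these genes share a promoter element known as CLEAR, which is bound by the transcription factors TFEB and TFE3.

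Libraries held 60122936 to 82151816 counts assigned to genes, and all 3 VNLG-152R libraries were deeper than the controls. Read pairs outside annotated genes were 2.63% to 3.17% of the total in controls and 3.36% to 5.05% in treated libraries, and their part in the results was not tested. The mesenchymal markers of the line were abundant in controls, with mean levels of 5077 CPM (TMM-normalized counts scaled to 1e+06 per library) for VIM, 1150 CPM for AXL and 696 CPM for CD44. The luminal markers ESR1 and CDH1 had 0 to 8 and 26 to 43 counts per library. Of the immune markers, PTPRC, CD3E and MS4A1 had 0 to 2 counts, and CD14 and LYZ had control means of 3.02 and 0.564 CPM. Of the endothelial markers, CDH5 and VWF had 0 to 13 counts, PECAM1 averaged 23.1 CPM in controls, and KDR was at 11.3 to 14.6 CPM in controls and 31.8 to 37.6 CPM with VNLG-152R.

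The lysosome genes leaned upward by a small amount. Of the 36 genes, 35 had enough counts to be tested, and 5 rose with VNLG-152R: ATP6V0A1, LIPA, PSAP, ASAH1 and TMEM192 (edgeR quasi-likelihood test, adjusted p under 0.05). Among all 17084 genes tested, 5.19% were called, 3.76% higher and 1.43% lower, beside which 5 of the 35 lysosome genes is 14.3%. These genes and the other gene lists below were chosen with earlier results of these data known. Such shares therefore describe the lists and do not test them. No lysosome gene was called lower by edgeR, DESeq2 or limma-voom, beside 1.43%, 3.49% and 1.35% of all genes. Unadjusted p was under 0.05 upward in 11 of the 35 (31.4%) and downward in 0, and over all tested genes these shares were already 12.8% and 9.76%. DESeq2 called 6 of the lysosome genes higher (6.08% of all genes with an adjusted p) and limma-voom called 4 (3.49%). Log2 fold changes ran from -0.17 for CTSD to 0.43 for ATP6V0A1, with 29 positive and 6 negative, and their median was 0.16, whereas the median of all tested genes was -0.00. In 14 genes every VNLG-152R library was above every control library, and in 1, ATP6V0D1, every one was below. Over all tested genes these shares were 15.1% and 13.4%. The counts by role below stand beside these all-gene shares, and no role was tested against them. With 3 against 3 libraries an exact permutation test of a single gene cannot go below 0.10, so the calls rest on the fit across genes. In bulk RNA, fewer cells of a type and less RNA per cell cannot be told apart.

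**Figure D1:**
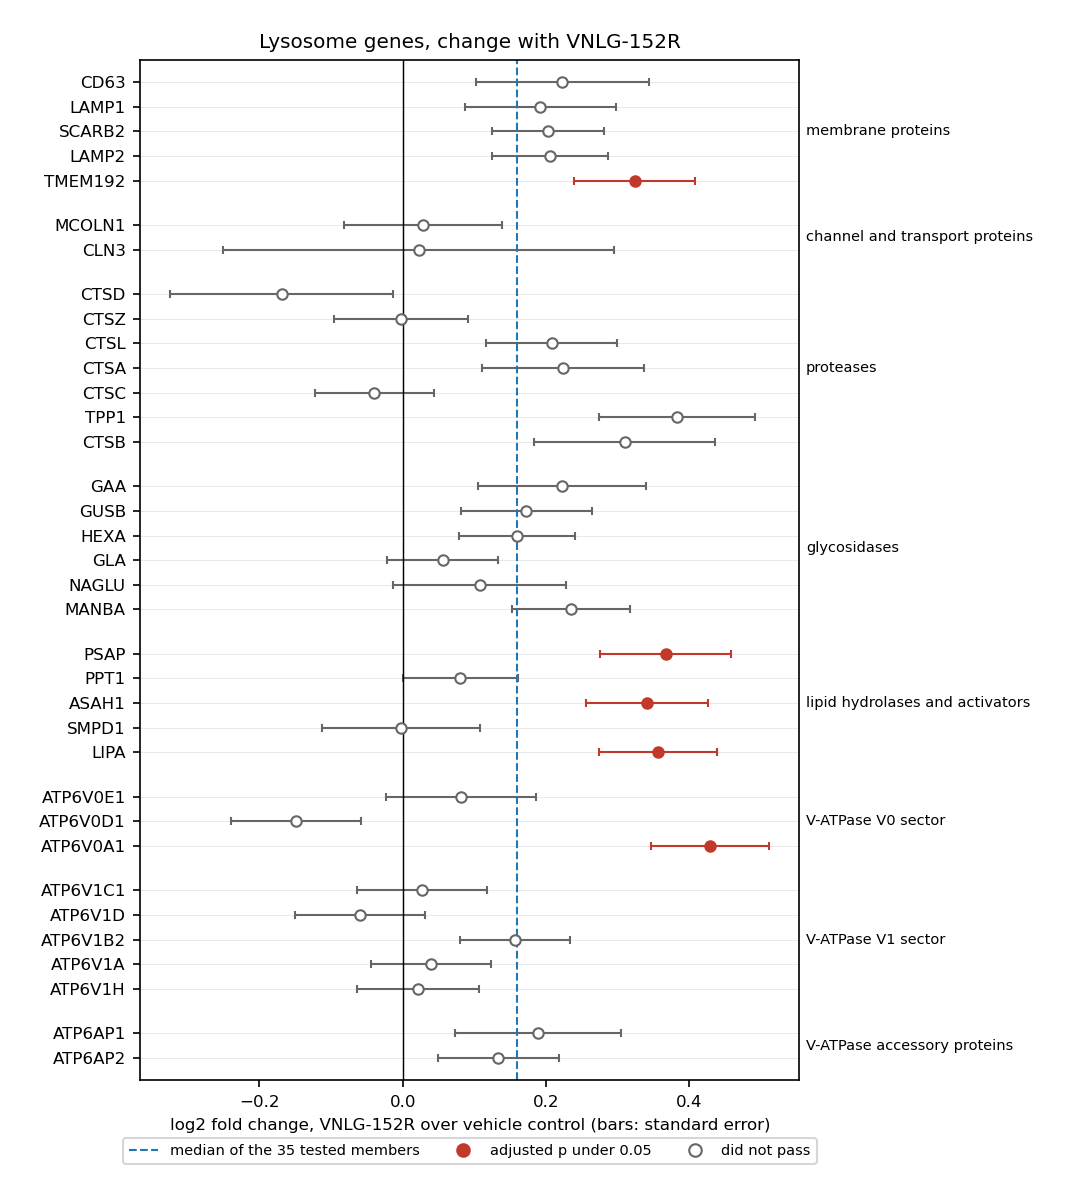
Log2 fold change of each of the 35 tested lysosome genes (VNLG-152R over vehicle control, 3 libraries each), grouped by role, with bars of 1 standard error. Filled points are the 5 genes with an adjusted p under 0.05, all to the right of 0. The dashed line is the median of the 35 genes, 0.16.

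Summed over all 36 genes, the level was 5833, 5860 and 5818 CPM in the control libraries and 6999, 6492 and 6229 CPM in the VNLG-152R libraries. The groups did not overlap, and the genes' share of all normalized counts went from 0.584% to 0.657%. A sum weighs abundant genes most: its mean went from 5837 to 6573 CPM, and the mean of PSAP alone rose by 353 CPM. VNLG-152R replicate 1 stood highest: its median log2 difference from the control mean over the 35 tested genes was 0.23, against 0.11 and 0.10 in replicates 2 and 3. Without replicate 1 the median log2 fold change of the genes was 0.11.

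**Figure D2:**
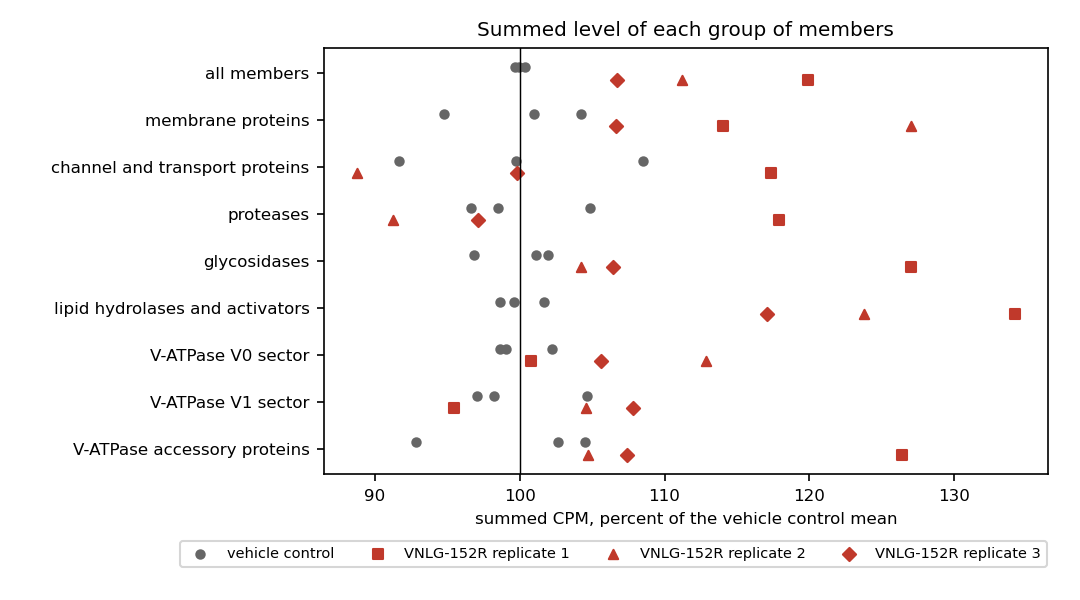
Summed CPM of each group of lysosome genes as percent of the vehicle control mean, 1 point per library. Membrane proteins, glycosidases, lipid hydrolases and activators, V0 subunits and accessory proteins lay above 100 percent in all 3 VNLG-152R libraries. Proteases, channel and transport proteins and V1 subunits straddled it.

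The promoters of these genes are shown because the sequence CACGTG, the core of the CLEAR element, is what many of them share. RefSeq promoters (GRCh38.p14, 250 bases before to 50 bases after the gene start) were at hand for 24 of the 36 genes. CACGTG reads the same on both strands, and the longer motif GTCACGTG, searched on both strands, contains it. CACGTG was present in 9 of the 24 promoters (37.5%), in 21 of 110 promoters of other lysosome genes (19.1%) and in 7.43% of all 27305 promoters of the same length. It was in 9.88% of the 11461 promoters of genes tested here. GTCACGTG was present in 7 of the 24 (29.2%) and in 16 of 110 promoters of other lysosome genes (14.55%). Its share was 4.25% in the promoters of tested genes and 2.53% in all promoters. LAMP1 held 6 copies of CACGTG, CLN3, CTSA, GAA and MCOLN1 held 2 each, and ATP6V0D1, CD63, CTSD and NEU1 held 1 each. Stretches upstream of LAMP1, GAA and MCOLN1 are printed with CACGTG in capitals, beside one from ATP6V0A1, the gene with the smallest p, in which CACGTG did not occur.
LAMP1, chr13:113297039-113297114, plus strand: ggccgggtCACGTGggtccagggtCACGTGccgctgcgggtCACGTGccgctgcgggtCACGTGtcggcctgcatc
GAA, chr17:80101481-80101531, plus strand: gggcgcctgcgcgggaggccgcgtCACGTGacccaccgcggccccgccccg
MCOLN1, chr19:7522564-7522603, plus strand: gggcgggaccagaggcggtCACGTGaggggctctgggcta
ATP6V0A1, chr17:42458718-42458837, plus strand: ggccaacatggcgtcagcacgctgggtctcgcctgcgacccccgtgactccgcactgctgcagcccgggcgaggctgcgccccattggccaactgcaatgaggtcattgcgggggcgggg

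Promoters were available for 3 of the 5 genes that rose, ATP6V0A1, LIPA and TMEM192, and CACGTG was in none of the 3 windows. Of the tested genes with CACGTG in the window, 0 of 8 were called higher by edgeR, and their median log2 fold change was 0.11 (range -0.17 to 0.22). Of those without it, 3 of 15 were called higher, with a median of 0.17 (range -0.06 to 0.43). Over all tested genes 3.76% were called higher, and any link between the motif and the change was not tested. LAMP1, with the most copies, had 280, 339 and 336 CPM in controls and 411, 339 and 340 CPM with VNLG-152R. Its log2 fold change of 0.19 (SE 0.11) did not pass the test (edgeR adjusted p = 0.307). MCOLN1 and GAA, printed beside it, did not pass the test either.

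Among the lysosomal membrane proteins, 1 of 5 passed the test and all 5 log2 fold changes were positive, with a median of 0.21. The gene that rose was TMEM192 (chr4:165070608-165208549, minus strand), whose product is a multipass protein of the lysosomal membrane used to tag the organelle. It was at 28.2, 25.5 and 24.7 CPM in controls and at 31.5, 33.4 and 33.1 CPM with VNLG-152R. The lowest treated library was above the highest control, and the log2 fold change was 0.32 (SE 0.08, edgeR adjusted p = 0.0472). This call did not hold with limma-voom, RLE size factors, library size only or thinned libraries (adjusted p = 0.0506 to 0.0640), nor with a correction for transcript length, which lowered the log2 fold change to 0.15 (adjusted p = 0.371). TMEM192 has the longest transcript of the 36 genes, 10012 bases. With library size only, 4 genes were called higher and TPP1 was among them, so another of the 5 calls was also lost there.

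LAMP2, which also serves as a receptor for chaperone-mediated autophagy, was at 125, 126 and 116 CPM in controls and at 133, 147 and 142 CPM with VNLG-152R. SCARB2, the receptor that carries glucocerebrosidase to lysosomes, was at 190, 201 and 184 CPM in controls and at 225, 215 and 222 CPM with VNLG-152R. In both genes the groups did not overlap, but neither passed (log2 fold changes 0.21 and 0.20, edgeR adjusted p = 0.157 and 0.153). The tetraspanin CD63 was at 612, 668 and 656 CPM in controls and at 685, 920 and 654 CPM with VNLG-152R. Its treated mean rested on replicate 2, without which the log2 fold change went from 0.22 to 0.05. Neither channel and transport gene was called by edgeR, DESeq2 or limma-voom, and 0 had an unadjusted p under 0.05. MCOLN1, the calcium channel TRPML1, was at 28.2 to 33.4 CPM in controls and at 27.2 to 36.3 CPM with VNLG-152R. CLN3, the membrane protein mutated in juvenile Batten disease, had only 23 to 41 counts per library, or 0.427 CPM on average in controls. GENCODE 29 places 25.2% of its exon bases under a read-through gene on the same strand, which itself had 0 to 2 counts, so the level of CLN3 is uncertain.

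**Figure D3:**
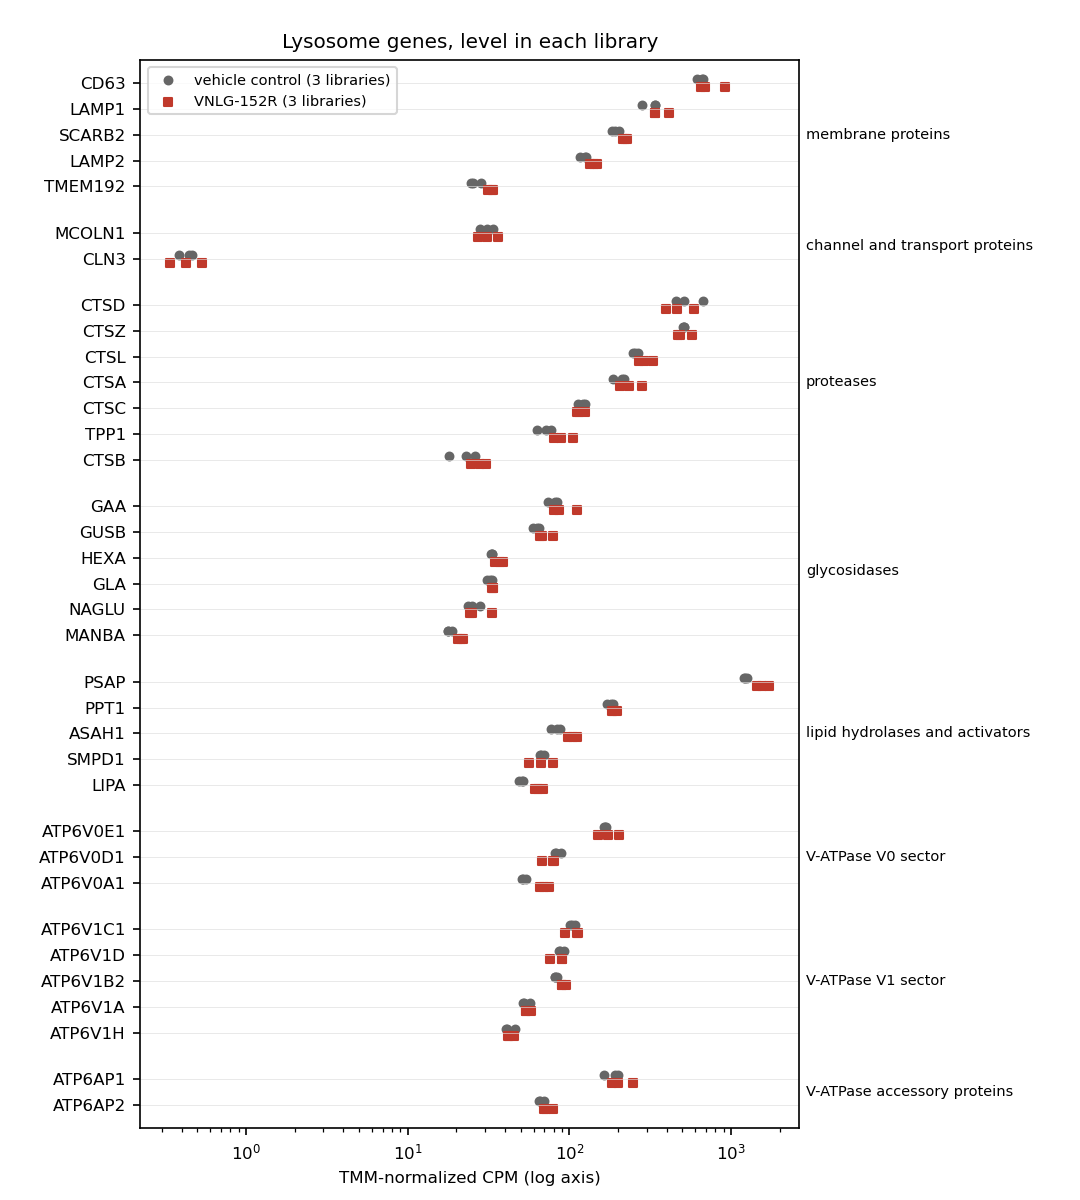
TMM-normalized CPM of each tested lysosome gene in each of the 6 libraries, on a log axis and grouped by role. NEU1, with 1 count in all, is left out. The treated and control points lie close together throughout, with PSAP highest at 1199 to 1721 CPM and CLN3 lowest.

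Per kilobase of transcript, the highest control levels were those of CD63 (523 ± 23.9 CPM per kb, SD, n = 3), PSAP (425 ± 8.20), CTSZ (341 ± 3.33) and CTSD (256 ± 51.3). CTSD varied most, and the differences between genes were not tested. TMEM192 (2.61 ± 0.19), MANBA (5.38 ± 0.15) and CTSB (5.76 ± 1.04) were the lowest above CLN3.

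No protease was called in either direction. Of 7, 3 had an unadjusted p under 0.05 upward and 0 downward, beside 12.8% and 9.76% of all tested genes. DESeq2 called 1 higher (6.08% of all genes with an adjusted p), and limma-voom called 0. The nearest was TPP1, the tripeptidyl peptidase deficient in a late infantile form of Batten disease, at 62.6, 76.5 and 71.5 CPM in controls and 105, 80.6 and 89.1 CPM with VNLG-152R. All treated libraries were above all controls, with a log2 fold change of 0.38 (SE 0.11, edgeR adjusted p = 0.0648), and it was called by DESeq2 (adjusted p = 0.0179), with library size only and with no expression filter. GENCODE 29 places 11.6% of its exon bases under another gene on the same strand, and that gene had 0 counts.

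The cysteine protease CTSL was at 249, 265 and 254 CPM in controls and at 329, 288 and 269 CPM with VNLG-152R. Its groups did not overlap, and its log2 fold change of 0.21 did not pass (edgeR adjusted p = 0.200). CTSB, also a cysteine protease, was at 18.0, 26.0 and 23.0 CPM in controls and at 30.5, 27.8 and 24.7 CPM with VNLG-152R, so the groups overlapped. CTSA, which protects beta-galactosidase and sialidase in a complex, had control values of 186 to 218 CPM and treated values of 204 to 280 CPM. The exopeptidases CTSC and CTSZ had log2 fold changes of -0.04 and -0.00. CTSD, the main aspartic protease of the lysosome, was at 665, 455 and 511 CPM in controls and at 593, 396 and 463 CPM with VNLG-152R. Its spread between replicates was wide and the groups overlapped (log2 fold change -0.17, SE 0.16). A gene on the same strand covers 41.7% of its exon bases in GENCODE 29 and had 46 to 120 counts per library. Summed over the 7 proteases, controls were at 1811, 1670 and 1702 CPM and VNLG-152R libraries at 2036, 1577 and 1678 CPM, with replicate 1 alone above the controls.

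Among the glycosidases, which remove sugars from glycoproteins, glycolipids and glycosaminoglycans, 6 of 7 were tested and 0 were called by edgeR, DESeq2 or limma-voom. All 6 log2 fold changes were positive, with a median of 0.17, and 1 had an unadjusted p under 0.05 (upward in 12.8% of all tested genes). That gene was MANBA, beta-mannosidase, at 17.8, 17.8 and 18.7 CPM in controls and 22.1, 21.3 and 20.5 CPM with VNLG-152R. Its groups did not overlap, and the log2 fold change was 0.23 (SE 0.08, edgeR adjusted p = 0.119). HEXA, the alpha subunit of beta-hexosaminidase, and GUSB, beta-glucuronidase, also had all treated libraries above all controls, with log2 fold changes of 0.16 and 0.17. GAA, the acid glucosidase that degrades glycogen, was at 73.7, 83.3 and 81.6 CPM in controls and at 112, 80.2 and 86.2 CPM with VNLG-152R, so replicate 1 set its mean. The alpha-galactosidase GLA and NAGLU, which acts on heparan sulfate, had log2 fold changes of 0.06 and 0.11 and overlapping groups.

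NEU1, the lysosomal sialidase, was the gene not tested: it had 1 count in VNLG-152R replicate 2 and 0 in the other libraries. A count of 0 allows up to 0.0499 CPM in the shallowest library, as far as counting error goes. Within 500 kb of NEU1, 66 of 70 protein-coding genes (94.3%) had a mean under 1 CPM, against 42.2% of all 19877 protein-coding genes. Whether NEU1 reads were lost in alignment or counting was not tested, so its level is given as uncertain.

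Enzymes and activators of lipid breakdown held 3 of the 5 genes that rose, out of 5 tested, with a median log2 fold change of 0.34. PSAP (chr10:71816298-71851375, minus strand) encodes prosaposin, the precursor of the saposins that present sphingolipids to their hydrolases. It was at 1199, 1245 and 1214 CPM in controls and at 1721, 1545 and 1453 CPM with VNLG-152R. The groups were well apart, and the treated mean was 1.29 times the control mean (log2 fold change 0.37, SE 0.09, edgeR adjusted p = 0.0391).

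LIPA (chr10:89213569-89414557, minus strand) encodes lysosomal acid lipase, which frees cholesterol and fatty acids from lipoprotein lipids. It was at 51.6, 50.8 and 48.4 CPM in controls and at 61.1, 68.3 and 63.7 CPM with VNLG-152R. Every treated library exceeded every control, with a log2 fold change of 0.36 (SE 0.08, edgeR adjusted p = 0.0295). IFIT2, on the opposite strand, overlaps part of the 4.07% of LIPA exon bases that have an antisense partner.

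ASAH1 encodes acid ceramidase, which splits ceramide into sphingosine and a fatty acid. It was at 87.1, 83.5 and 77.3 CPM in controls and at 97.9, 111 and 105 CPM with VNLG-152R. The groups did not overlap (log2 fold change 0.34, SE 0.09, edgeR adjusted p = 0.0398). The other members of the group did not pass: SMPD1, acid sphingomyelinase, was at 66.1 to 69.2 CPM in controls and at 56.2 to 78.7 CPM with VNLG-152R, and PPT1, a palmitoyl thioesterase, had a log2 fold change of 0.08. For PPT1, 23.4% of exon bases lie opposite CAP1, and the strand setting of the counting is not given.

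Of the 10 genes of the proton pump, 1 rose and the median log2 fold change was 0.06. The gene was ATP6V0A1 (chr17:42458844-42522611, plus strand), an isoform of the large a subunit that forms the proton path with the membrane ring. It was at 50.8, 51.8 and 53.7 CPM in controls and at 74.6, 69.9 and 65.9 CPM with VNLG-152R. Its groups were clearly apart, and the treated mean was 1.35 times the control mean (log2 fold change 0.43, SE 0.08, edgeR adjusted p = 0.0122).

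ATP6V0D1, the d subunit that links the ring to the central stalk, was the only one of the 36 genes with every treated library below every control, at 81.3, 82.3 and 88.8 CPM against 80.7, 67.8 and 79.1 CPM. The gap between the groups was small, and the log2 fold change of -0.15 did not pass (SE 0.09, edgeR adjusted p = 0.354). ATP6V0E1, the small e subunit, was at 164 to 167 CPM in controls and 149 to 203 CPM with VNLG-152R.

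The 5 V1 subunits were close to level. None was called by edgeR, DESeq2 or limma-voom, 0 had an unadjusted p under 0.05, and the median log2 fold change was 0.03. ATP6V1A, the catalytic A subunit, was at 57.3, 51.4 and 52.2 CPM in controls and at 54.0, 53.5 and 57.8 CPM with VNLG-152R. ATP6V1B2, its partner B subunit, was at 83.6, 81.1 and 81.0 CPM in controls and at 89.3, 89.7 and 94.8 CPM with VNLG-152R. The A subunit groups overlapped, whereas the B subunit groups did not (log2 fold change 0.16, edgeR adjusted p = 0.251). ATP6V1C1, ATP6V1D and ATP6V1H, the C and D subunits and the regulatory H subunit, had log2 fold changes of 0.03, -0.06 and 0.02 and overlapping groups. The accessory proteins ATP6AP1 and ATP6AP2, which help assemble the pump, had log2 fold changes of 0.19 and 0.13, neither called by edgeR, DESeq2 or limma-voom and with 0 unadjusted p under 0.05.

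The 5 calls lie near the threshold, as the adjusted p with each library left out shows. ATP6V0A1 passed in 5 of the 6 fits, and without vehicle control replicate 3 its adjusted p was 0.0611. TMEM192 passed in 2 of 6, LIPA and ASAH1 in 1 of 6, and PSAP in 0 of 6, where its adjusted p was 0.0516 to 0.161. Of the 5 genes, 2, 1 and 0 passed when vehicle control replicate 1, 2 or 3 was left out, and 4, 1 and 1 when VNLG-152R replicate 1, 2 or 3 was left out. Calls also fell over all tested genes, where 3.76% were higher with all 6 libraries. Without vehicle control replicate 1, 2 or 3 that share was 1.84%, 2.73% and 1.26%. Without VNLG-152R replicate 1, 2 or 3 it was 3.43%, 2.25% and 2.29%. TPP1, not among the 5, passed without VNLG-152R replicate 2 (edgeR adjusted p = 0.0380). The log2 fold changes moved less: 0.39 to 0.47 for ATP6V0A1, 0.31 to 0.40 for LIPA, 0.30 to 0.42 for PSAP, 0.30 to 0.39 for ASAH1 and 0.28 to 0.38 for TMEM192.

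**Figure D4:**
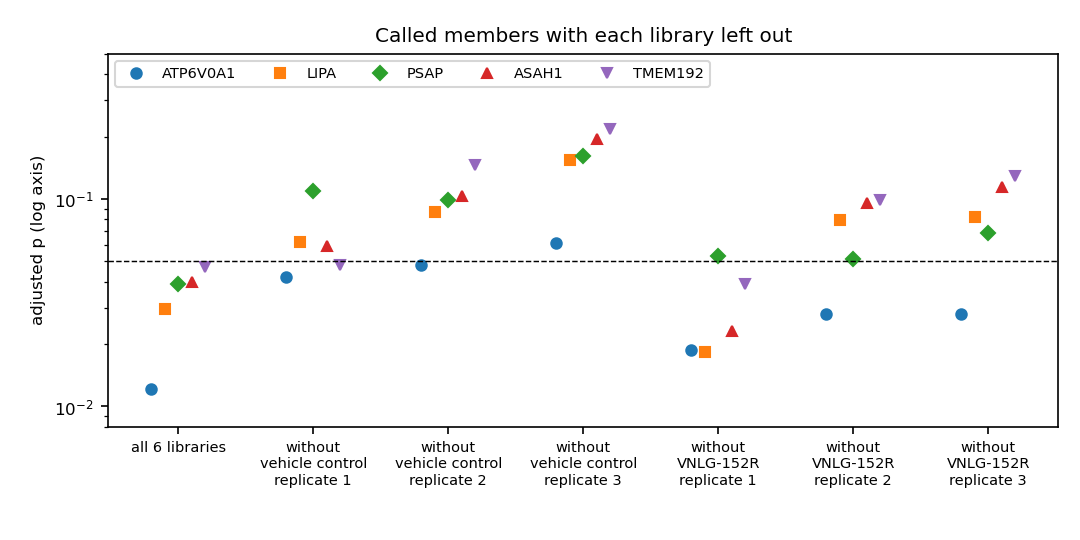
Adjusted p (edgeR, log axis) of the 5 called lysosome genes with all 6 libraries and with each library left out. The dashed line is the threshold of 0.05. ATP6V0A1 is above it only without vehicle control replicate 3, and PSAP is above it in all 6 reduced fits.

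Beyond these 36 genes, 138 other lysosome genes were listed by role and 126 were tested. Of these, 7 rose (5.56%) and 1 fell (0.794%) by edgeR, shares near the 3.76% and 1.43% of all tested genes, and the median log2 fold change was 0.11. Unadjusted p was under 0.05 upward in 36 (28.6%, against 12.8% of all genes) and downward in 5 (3.97%, against 9.76%). DESeq2 called 16 higher (12.9% of the 124 with an adjusted p, against 6.08%) and 2 lower, and limma-voom called 6 higher and 0 lower.

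Of 38 other enzymes tested, 1 rose, FUCA1, the lysosomal fucosidase, at 29.8, 31.5 and 30.3 CPM in controls and 43.9, 40.6 and 40.5 CPM with VNLG-152R (log2 fold change 0.45, SE 0.08, edgeR adjusted p = 0.00787). Of 34 other membrane proteins, 2 rose. ENTPD4, a nucleotide-splitting enzyme of the Golgi and lysosomal membranes, was at 68.2, 72.2 and 76.1 CPM in controls and 110, 112 and 92.4 CPM with VNLG-152R (log2 fold change 0.54, SE 0.09, edgeR adjusted p = 0.00669). SLC17A5, the sialic acid exporter sialin, was at 84.5, 83.1 and 73.3 CPM in controls and 104, 107 and 109 CPM with VNLG-152R (log2 fold change 0.41, SE 0.08, edgeR adjusted p = 0.0168). In all 3 genes the groups were apart, and with a library left out FUCA1 passed in 5 of 6 fits, ENTPD4 in 6 and SLC17A5 in 4.

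None of 15 genes for enzyme sorting and activation was called by edgeR. An unadjusted p under 0.05 was seen upward in 4 and downward in 0, beside 12.8% and 9.76% of all tested genes. DESeq2 called 1 higher and limma-voom 0. The smallest p was that of IGF2R, the mannose 6-phosphate receptor that carries enzymes to lysosomes, at 398, 528 and 443 CPM in controls and 707, 593 and 558 CPM with VNLG-152R (log2 fold change 0.44, edgeR adjusted p = 0.0526). Of 22 genes for lysosome fusion and positioning, 2 rose, among them VPS41, a subunit of the HOPS tether (log2 fold change 0.33, edgeR adjusted p = 0.0484). With a library left out, VPS41 passed in 1 of 6 fits, and it did not pass with the correction for transcript length (adjusted p = 0.119) or limma-voom (adjusted p = 0.0538).

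Of the 17 other V-ATPase subunits and assembly factors tested, 2 rose and 1 fell. ATP6V0D2, the tissue-restricted alternative to ATP6V0D1, was at 0.904, 1.18 and 0.880 CPM in controls and at 1.95, 2.37 and 2.50 CPM with VNLG-152R. The groups were far apart relative to their spread, although at a low level, and the log2 fold change was 1.21 (SE 0.19, edgeR adjusted p = 0.00336), past the threshold in 6 of 6 fits with a library left out. An antisense gene covers 16.7% of its exon bases. DMXL2, a rabconnectin that helps assemble the pump, rose (log2 fold change 0.41, adjusted p = 0.0316), but not with the correction for transcript length (log2 fold change 0.23, adjusted p = 0.143). TMEM199, an assembly factor of the pump, fell from a mean of 10.2 to 7.65 CPM (log2 fold change -0.41, edgeR adjusted p = 0.0484) and passed in 0 of 6 fits with a library left out.

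Levels per kilobase of transcript give the make-up of the V0 sector's isoforms. ATP6V0A1 made up 24.1%, 25.7% and 23.7% of the summed a subunits in controls and 22.7%, 24.9% and 26.9% with VNLG-152R, so its share overlapped between groups although its level rose. TCIRG1, the a3 isoform named here because this share is computed over it, made up most of the rest, at 66.8% in controls and 67.5% with VNLG-152R, and did not pass the test (log2 fold change 0.44, edgeR adjusted p = 0.0590). ATP6V0D2 made up 0.774%, 0.995% and 0.690% of the d subunits in controls and 1.67%, 2.39% and 2.17% with VNLG-152R. These groups did not overlap, and ATP6V0D1 was 97.6% to 99.3% of the d subunit RNA in every library.

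**Figure D5:**
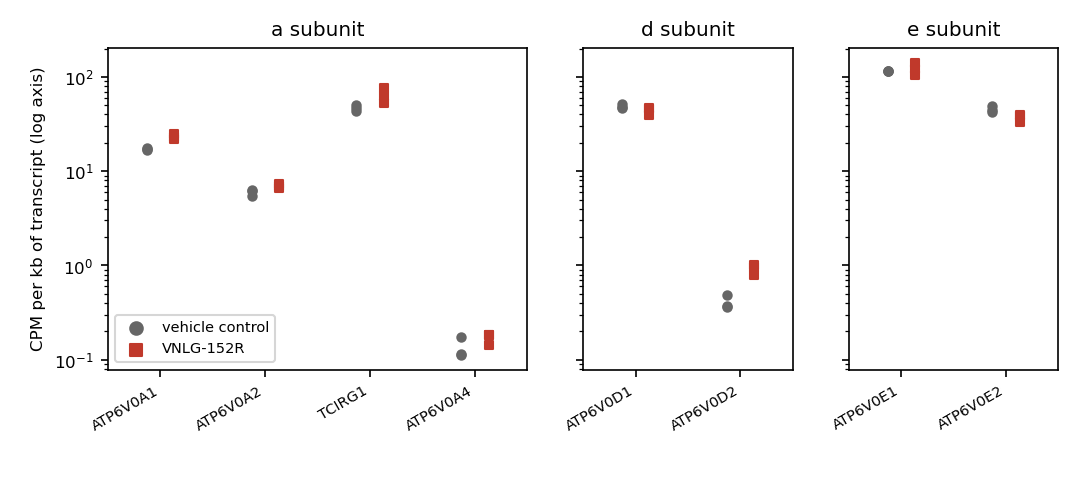
CPM per kilobase of transcript (log axis) of the alternative a, d and e subunits of the V-ATPase V0 sector, 1 point per library. ATP6V0D2 is higher in all 3 VNLG-152R libraries than in the 3 controls but far below ATP6V0D1, and the a subunits keep their order TCIRG1, ATP6V0A1, ATP6V0A2, ATP6V0A4.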

How the data were processed

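RNA from MDA-MB-231 cells was sequenced as strand-specific polyA libraries, 3 per group. The authors deposited raw counts of reads for each Ensembl gene and library, whose special classes (such as reads in no gene) were left out of totals. The submitters' processing notes name HISAT, HTSeq, DESeq and GRCh38 without roles, and neither the annotation release nor the strand setting is given in the sources used here. Of 61552 identifiers, 42047 had a symbol. Transcript lengths, exon overlaps and gene coordinates came from GENCODE 29 on GRCh38, which may differ from the authors' annotation. Promoters came from RefSeq (GRCh38.p14).

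VNLG-152R was compared with vehicle control by edgeR 4.0.16 in R 4.3.3 (glmQLFTest, TMM factors, genes kept by filterByExpr with a minimum count of 10), with Benjamini-Hochberg adjustment over 17084 genes and a threshold of 0.05. The biological coefficient of variation was 0.105, with 4 residual degrees of freedom per gene. CPM values are TMM-normalized, and log2 fold changes are fitted. The code was tested on simulated data. Alternatives were DESeq2 1.42.0, limma-voom (limma 3.58.1), other scalings, filters and thresholds, a replicate block, a correction for transcript length (lowess span 0.3), thinning to the shallowest library, and leaving out each library. All 36 genes could be named. From each list of other lysosome genes, up to 4 called genes per direction with the smallest p were named, or the gene with the smallest p where none was called. Of the genes this rule and the marker lists name, 2 are not reported here. The members and lists were chosen with earlier results of these data known.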

Additional observations from a re-analysis of the deposited data

Results flagged for a closer look

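Read pairs that fell in no gene of the annotation, which no comparison used, made up 5.05% of VNLG-152R replicate 2, above the highest control library (3.17%). It was 3.52% and 3.36% in the other VNLG-152R libraries.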

How the results depend on the processing

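The median log2 fold change of the lysosome genes stayed between 0.11 and 0.18 under every alternative run, and 0 were called lower under any. Over all tested genes the share called lower was 0.251% to 3.49% under these alternatives. The number called higher (5) was 4 to 6 under other scalings, filters and tools, the length correction, thinning and a threshold of 0.1, but 0 at a threshold of 0.01 and 0 to 4 with a library left out. Over all tested genes the share called higher was 2.70% to 6.74% in the first of these sets. It was 1.23% at 0.01 and 1.26% to 3.43% with a library left out. Of the other lysosome genes, 7 higher became 15 without an expression filter, 16 with DESeq2, 3 at 0.01, 15 at 0.1 and 2 to 9 with a library left out. The matching shares of all genes were 3.27%, 6.08%, 1.23%, 6.74% and 1.26% to 3.43%. The 1 lower became 0 with library size only, limma-voom, the length correction or 0.01, 2 with DESeq2 or 0.1, and 0 to 1 with a library left out. Except for the thresholds and the fewer samples, the cause was not tested. For single genes and alternatives, 26 of 524 pairs (11 of the 36 genes) had the other sign, none past the threshold.

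With the replicate block, 0 lysosome genes were called higher, and 2 higher and 0 lower of the other lysosome genes. Over all tested genes the block fit called 1.81% higher and 0.509% lower, against 3.76% and 1.43% in the main fit. Same-numbered libraries did not deviate together (correlations -0.19, -0.17 and -0.11), and none correlated best with its own number. Deviations were taken from each group's own mean of 3 libraries, so these values cannot settle whether the numbers pair the samples. Over all genes, log2 fold change and transcript length had a Spearman rho of 0.21 across 16731 genes, which are not independent replicates. At these depths and 3 libraries a group, TMEM192 at a log2 fold change of 0.32 was called and TPP1 at 0.38 was not.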

Other observations

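Some lysosome genes outside the 36 had almost no counts, and they are named here after their values were seen. ATP6V0C, which encodes the c subunit of the pump's membrane ring, had 2 to 16 counts per library. In GENCODE 29, 72.1% of its exon bases lie under other genes on the same strand, and both of those genes had 0 counts. VPS11, a core subunit of the CORVET and HOPS tethers, had 0 counts in each control library and 1 in each VNLG-152R library, with no same-strand overlap. CTSO, a cysteine protease, had 0 to 2 counts, and CLN8, an adaptor that carries enzymes out of the endoplasmic reticulum, had 0 in all 6 libraries. The levels of these genes are uncertain, and the part of the authors' annotation and counting in them was not tested.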
